A study of Mus musculus with 6 samples.

Results

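AP-1 is a family of dimeric transcription factors built from Fos and Jun proteins, and its genes belong to the immediate early genes, which cells transcribe within minutes of a stimulus from factors that are already present. In microglia and other leukocytes they are induced by cytokines, by receptor engagement and also by the enzymatic or mechanical handling of tissue, so their level in a cell suspension can carry traces of both. The 10 genes described here were taken by symbol, and 10 of 10 were found among the 28692 genes counted. Fos, Fosb, Jun, Junb and Jund encode AP-1 subunits, and Atf3 encodes a stress-induced bZIP partner. Egr1 encodes a zinc-finger factor induced through serum response elements, and Ier2 a nuclear immediate early protein. Dusp1 encodes the phosphatase that switches off p38 and JNK kinases, and Zfp36 encodes tristetraprolin, which binds AU-rich mRNAs and speeds their decay. The members were chosen by their levels and KO to WT ratios in the same 6 libraries, so every level and ratio below is a description with no test.

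The cells were leukocytes of C57BL/6 mice from a study of EAE (experimental autoimmune encephalomyelitis), in which induced autoimmunity inflames the central nervous system. Days are counted from EAE induction, and the labels do not say whether day 0 mice had been immunized. The 6 groups were formed by genotype, WT or knockout for the microRNA miR-155 (miR-155KO, KO below), and by day (0, 13 or 21). Each group was 5 mice per the labels and gave 1 droplet library of CD45-positive, DAPI-negative sorted cells, counted as unique molecular identifiers (UMIs) at mRNA 3' ends. The labels call the tissue brain, and their protocol, which kept cells on ice and used a Percoll gradient, also names spinal cord. Both libraries of a day carry 1 title prefix of their own, whose meaning is not stated, so a batch effect and a day effect cannot be told apart.

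The libraries held 1681 to 5630 barcodes and 6321841 to 24243660 UMIs, 20030 barcodes in all, and each pair of libraries shared 5 to 32 barcode sequences. Cells were placed in 12 classes by counting detected marker genes, and of 20007 kept cells 3547 met more than 1 gate (4.53% to 25.7% per library) and 1004 met none. Cells outside exactly 1 gate were left out. Classes are called microglia-like and so on. The WT and KO libraries held 1361 and 1224 microglia-like cells on day 0, 949 and 466 on day 13, and 533 and 1737 on day 21. As a check of the labels, UMIs of Mir155hg, the host transcript of miR-155, numbered 2, 45 and 59 in WT on days 0, 13 and 21, against 0, 0 and 1 in KO. Levels are UMIs per 1000000 UMIs of a class (CPM), not scaled by gene length, and a gene was measured where either library had 10 CPM or more. Ratios have 95% intervals that cover counting error only, and the fold limit for a count was 1.5. Classes of a library come from the same tube and are not replicates of a condition.

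The start regions of 4 members are shown because they carry the short elements by which immediate early genes are known to be switched on. Each is the 250 bases before a transcript start in the RefSeq promoter table (GRCm38.p6), 5′ to 3′ on the gene's strand. Capitals mark the cAMP response element (CRE) half-site TGACG, the CRE-like TGACNTCA or the EGR site GCGNGGGCG. The windows lie at chr12:85473640-85473889 (Fos, plus strand), chr7:19310046-19310295 (Fosb, minus), chr4:95052223-95052472 (Jun, minus) and chr17:26508473-26508722 (Dusp1, minus). The RefSeq gene records lie at chromosome 12, 85473890 to 85477274 (Fos), chromosome 7, 19302696 to 19310118 (Fosb), chromosome 4, 95049036 to 95052222 (Jun) and chromosome 17, 26505591 to 26508472 (Dusp1). The Fosb record begins upstream of the start used in that table, so the last stretch of the Fosb window, with both marked elements, lies inside the record.
Fos: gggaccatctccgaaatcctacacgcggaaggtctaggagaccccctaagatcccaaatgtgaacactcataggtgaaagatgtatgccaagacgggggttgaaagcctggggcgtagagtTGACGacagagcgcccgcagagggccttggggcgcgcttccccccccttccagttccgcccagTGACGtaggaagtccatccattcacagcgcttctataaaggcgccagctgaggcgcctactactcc
Fosb: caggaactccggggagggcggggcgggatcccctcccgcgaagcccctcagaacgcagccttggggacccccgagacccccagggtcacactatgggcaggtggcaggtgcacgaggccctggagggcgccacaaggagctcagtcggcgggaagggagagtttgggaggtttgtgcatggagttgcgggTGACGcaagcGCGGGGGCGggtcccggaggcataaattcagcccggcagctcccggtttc
Jun: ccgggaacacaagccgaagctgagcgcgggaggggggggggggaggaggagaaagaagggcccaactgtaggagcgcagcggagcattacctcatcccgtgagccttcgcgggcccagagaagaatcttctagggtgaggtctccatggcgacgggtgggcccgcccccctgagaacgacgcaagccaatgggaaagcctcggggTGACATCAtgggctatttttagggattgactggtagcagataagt
Dusp1: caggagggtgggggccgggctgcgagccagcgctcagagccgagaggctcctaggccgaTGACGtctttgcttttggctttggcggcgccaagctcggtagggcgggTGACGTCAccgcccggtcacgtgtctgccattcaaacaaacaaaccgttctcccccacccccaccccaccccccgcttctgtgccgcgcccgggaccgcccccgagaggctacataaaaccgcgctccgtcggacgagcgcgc

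Of the members, 8 matched the promoter table. The half-site TGACG, on either strand, was in 5 of the 8 windows (Fos, Fosb, Junb, Atf3 and Dusp1), against 17.8% of 32851 windows of that length. The Fos window held it at 66 and at 129 bases before the start, with TATAAA at 33. Dusp1 held the full palindrome TGACGTCA, which 1.55% of windows have, and Jun held TGACATCA, a form of TGACNTCA, in which the half-site is contained wherever N is G (7.49% of windows, 2 of 8 members). The EGR site was in Fosb and Zfp36 (4.70% of windows), the CArG box, read by serum response factor, in Zfp36 (1.47%), and the AP-1 site TGANTCA was not in these 8 windows (6.75%). These matches describe letters and not factor binding.

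The microRNA that the KO mice lack is shown with its seed, bases 2 to 8, in capitals, followed by the stretches of the Fos and Jun 3' untranslated regions that hold a 6-base match (capitals) to bases 2 to 7.
miR-155-5p: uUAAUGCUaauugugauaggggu
Fos: gcccgagctggtGCATTAcagagaggagaa
Jun: aacctctttgctGCATTAtccatagataat

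The mature sequence is from RefSeq (GRCm38.p6, chr16:84714143-84714165, plus strand), and the untranslated regions are the longest annotated per gene in GENCODE M21. The 7-base match AGCATTA was in 0 of 10 members and in 8.35% of 20774 genes. The shorter GCATTA was in 2 of 10, Fos at base 56 of 815 and Jun at base 752 of 1233, and in 19.7% of genes. Fos has been described as a miR-155 target in mouse dendritic cells. No measurement here bears on whether either stretch was bound.

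All 10 members were far higher in microglia-like cells of day 0 than of days 13 and 21, in both genotypes. Fos stood at 4840 CPM in WT and 4260 in KO on day 0, at 223 and 610 on day 13, and at 525 and 874 on day 21. Jun, of the Jun proteins with which Fos binds DNA, had 7021 and 6332 CPM on day 0, then 708 and 1105, then 1090 and 1803. The day 0 libraries were the high pair for each gene, and on both later days the KO library lay above the WT library.

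Among the other AP-1 subunits, Fosb had 448 and 438 CPM (WT and KO) on day 0, 12.1 and 37.2 on day 13, and 17.9 and 68.4 on day 21. Junb had 3025 and 2555, 488 and 609, and 743 and 1043, and Jund had 2547 and 2471, 304 and 396, and 541 and 843. The same order of the 3 days held for these subunits as for Fos. Atf3 stood at 267 and 227 CPM on day 0, at 17.6 and 27.6 on day 13, and at 39.6 and 33.6 on day 21, and was the single member whose KO level was not the higher one on day 21.

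Egr1 had 691 and 637 CPM on day 0, 80.0 and 166 on day 13, and 172 and 217 on day 21. For Ier2 the levels were 814 and 616, 103 and 226, and 194 and 211. For both genes the day 13 WT library was the lowest of the 6. Dusp1 had 1186 and 988 CPM, then 61.4 and 201, then 125 and 182. Zfp36 had 941 and 782, then 163 and 253, then 269 and 433. In KO the levels of Dusp1 and Ier2 were lower on day 21 than on day 13, unlike those of the other 8 members. The 10 genes together took 2.18% and 1.93% of all microglia-like UMIs on day 0, 0.216% and 0.363% on day 13, and 0.372% and 0.571% on day 21.

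**Figure D1:**
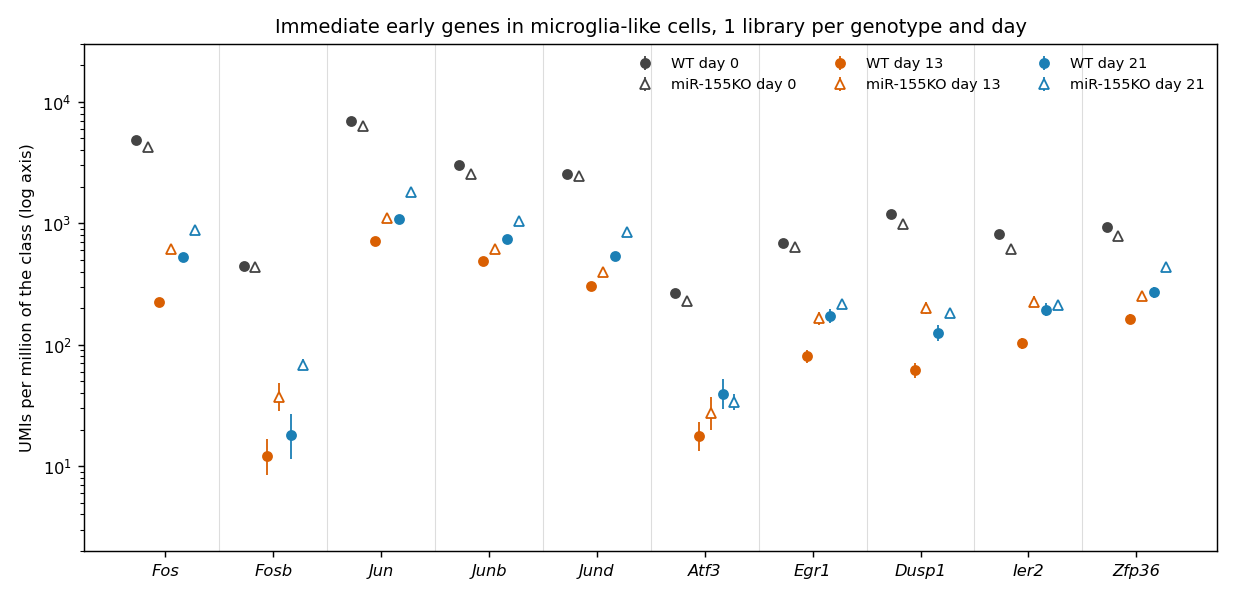
Level of each of the 10 genes in microglia-like cells (CPM, log axis) in the WT (filled circles) and miR-155KO (open triangles) library of each day, with exact Poisson 95% intervals that cover counting error only. The day 0 pair (grey) lies above the other 4 libraries for every gene, for example Fos at 4840 and 4260 against 223 to 874.

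From day 0 to day 13, 10 of 10 members were 1.5-fold or more lower in microglia-like cells of both genotypes, where 26.6% of 7950 genes (WT) and 29.3% of 8060 genes (KO) were. The median log2 ratio of the members was -3.20 in WT and -2.41 in KO, and that of all measured genes was -0.24 and -0.25. Fos was 21.7-fold lower in WT (20.1 to 23.5) and 6.99-fold lower in KO (6.54 to 7.46). The 2 genotypes have separate libraries on each day, and the drop was smaller in KO for each of the 10 genes. Fosb was 37.1-fold lower in WT (26.8 to 52.8) and 11.8-fold in KO (9.06 to 15.6), while Zfp36, the least changed in WT, was 5.76-fold lower (5.25 to 6.33) and 3.10-fold (2.79 to 3.45).

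The day difference was not limited to microglia-like cells. In T-like cells, 7 of 10 members were lower on day 13 in WT (14.5% of genes) and 9 of 10 in KO (20.1%). B-like cells had 8 of 10 lower in WT (40.9% of genes) and 9 of 10 in KO (41.3%). In monocyte/macrophage-like cells, which could be compared in WT alone, 8 of 10 were lower (27.2% of genes), with Fos at 1713 CPM on day 0 and 320 on day 13. Neutrophil-like cells differed from these classes by their counts. Of their measured members, 4 of 8 were lower in WT (12% of genes) and 7 of 10 in KO (24.3%), and Dusp1 was 1.70-fold higher in WT, at 90.4 CPM on day 0 and 154 on day 13. Some members reached 10 CPM on day 0 alone, so they could be called lower but not higher. In neutrophil-like cells these were Egr1 in WT (13.2 and 8.39 CPM on days 0 and 13) and Fosb, Atf3 and Egr1 in KO. Their KO levels were 10.7, 21.4 and 24.9 CPM on day 0 and 2.23, 2.23 and 1.11 on day 13. The same held for Atf3 in T-like and B-like, Fosb in T-like and Egr1 in B-like cells of both genotypes.

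By class medians, the members' log2 ratio of day 13 to day 0 in WT was -3.20 in microglia-like, -2.07 in B-like, -1.35 in T-like, -1.29 in monocyte/macrophage-like and -0.33 in neutrophil-like cells. Medians of all measured genes in the same classes were -0.24, -0.40, 0.15, -0.19 and 0.23. The same in KO gave -2.41, -1.57 and -1.25 for microglia-like, B-like and T-like cells and -0.94 for neutrophil-like cells. Fos in T-like cells was at 351 and 363 CPM on day 0 and at 54.8 and 129 on day 13. In B-like cells Fos had 457 and 392 CPM on day 0 and 63.7 and 116 on day 13.

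**Figure D2:**
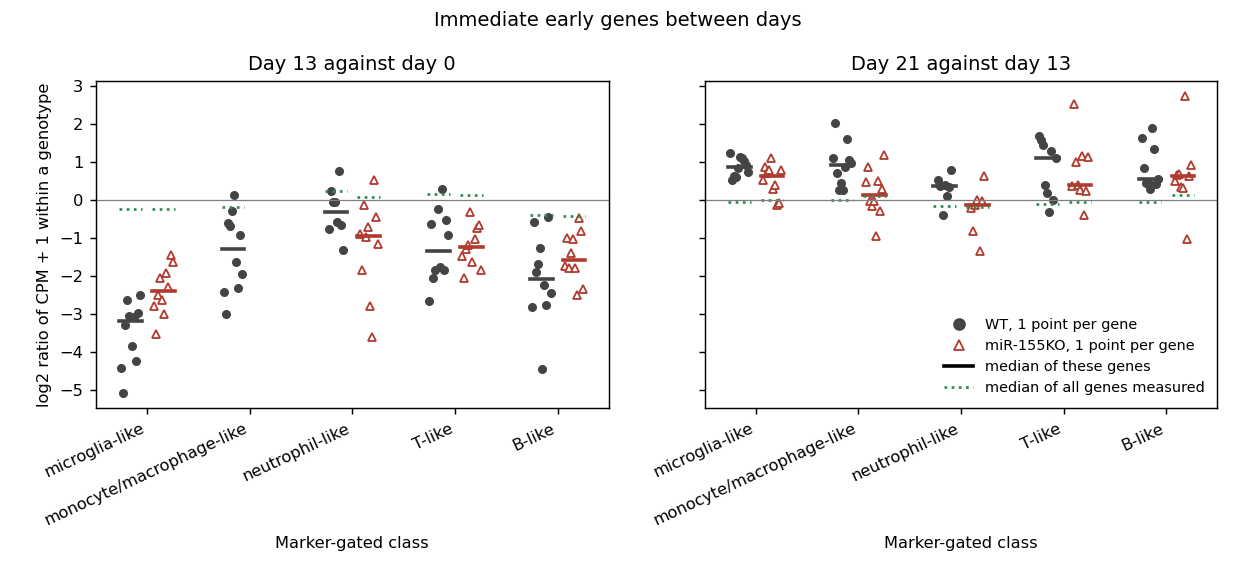
Log2 ratio of levels between 2 days of 1 genotype (vertical axis) by class (horizontal axis). Each point is a measured gene of the 10, filled circles for WT and open triangles for miR-155KO. Bars are medians of these measured genes (8 of the 10 in WT neutrophil-like cells, left panel) and dotted lines medians of all measured genes. In the left panel the microglia-like medians lie at -3.20 and -2.41, the lowest bars of their genotypes, and the neutrophil-like WT median lies at -0.33.

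Several library measures moved with day, and their part in the day difference was not tested. The median mitochondrial share of UMIs was 0.821% and 0.835% in the day 0 libraries, 2.16% and 2.46% on day 13, and 2.23% and 1.86% on day 21. In microglia-like cells the summed level of the 10 microglia markers, which the gate itself used, was 36382 and 37169.5 CPM on day 0 and 13242 to 24671 afterwards. Neutrophil markers, with 0 of 12 genes at 0, summed to 1230 and 738 CPM in microglia-like cells of day 0, 2067 and 1820 on day 13, and 4344 and 2680 on day 21. Of the monocyte/macrophage list, at most 1 of 9 genes was at 0 in a library and the sum ran from 93.4 CPM on day 0 to 784 on day 13.

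Heat shock genes, which handling of tissue can also raise, were read beside the members. Of 14 chaperone genes measured in microglia-like cells, 9 were 1.5-fold or more lower on day 13 than day 0 in WT and 10 in KO. In each genotype 1 was higher. Of all genes, 26.6% (WT) and 29.3% (KO) were lower and 11.6% and 13.2% higher, and these shares apply to the other lists below as well. Their median log2 ratios were -0.79 and -0.97. Hspa1a, an inducible chaperone picked after its values were seen, had 1008 and 1506 CPM on day 0, 108 and 82.7 on day 13, and 392 and 422 on day 21. The other immediate early genes, 29 measured of 38 listed, had 19 lower and 2 higher in each genotype, with medians of -1.32 and -0.91. The other AP-1 and bZIP partners did not follow the members: 4 were lower and 2 higher of 14 in WT, and 2 lower and 5 higher of 15 in KO, with medians of -0.03 and 0.10. The upstream kinases and regulators had medians of -0.24 and -0.28, against -0.24 and -0.25 for all genes.

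Day 21 levels were above those of day 13 for most members in WT cells, and less uniformly in KO. In microglia-like cells 9 of 10 members were 1.5-fold or more higher in WT (4.17% of genes) and 5 of 10 in KO (11.4%), and Dusp1 and Ier2 in KO were at 0.905 and 0.934 of their day 13 level. T-like cells had 5 of 9 members higher in WT (5.53% of genes) and 4 of 9 in KO (13.4%). B-like cells had 4 of 9 higher in WT (12.9%) and 5 of 9 in KO (18.7%). Fosb in T-like and Egr1 in B-like cells of both genotypes reached 10 CPM on day 21 and not on day 13. They could therefore be called higher but not lower. Monocyte/macrophage-like cells had 7 of 10 higher in WT (6.86%) and 2 of 10 in KO (18.3%), and neutrophil-like cells 1 of 7 in each (4.71% and 9.76%). Members past the limit in the other direction were 2 of 7 in KO neutrophil-like cells, where 25.1% of genes were lower. They were 1 of 10 in KO monocyte/macrophage-like (13.0%) and 1 of 9 in KO B-like cells (9.22%). The members' median was -0.13 in KO neutrophil-like cells, and that of all measured genes was -0.20. Of these 5 classes, neutrophil-like cells had the smallest share of higher members in each genotype.

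On day 0 the genotypes lay close in microglia-like cells. All 10 members were slightly lower in KO, with log2 ratios from -0.40 (Ier2) to -0.03 (Fosb) and a median of -0.21, and 0 of 10 passed 1.5-fold in either direction (1.63% of genes higher, 0.708% lower). Over the 4 classes that could be compared, 10 of 40 gene-class pairs were higher in KO (14.3% of all pairs) and 0 lower (16.2%). Of these, 7 were in neutrophil-like cells, where 18.7% of genes were higher and the KO library had 68 cells, and Fosb, Atf3 and Egr1 among the 7 rest on 3 to 12 UMIs per library. There Junb had 228 CPM in WT and 466 in KO, 2.04-fold (1.63 to 2.56), and Fos 296 and 495, 1.67-fold (1.35 to 2.06).

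On day 13, 8 of 10 members were 1.5-fold or more higher in KO than WT microglia-like cells (4.27% of genes) and 0 lower (3.87%). Dusp1 differed by 3.27-fold (2.72 to 3.94) and Fosb by 3.08-fold (2.00 to 4.78). Fos differed by 2.74-fold (2.48 to 3.03), Ier2 by 2.20-fold (1.89 to 2.57) and Egr1 by 2.08-fold (1.74 to 2.48). Each of these intervals lies above 1.5. Jun, Atf3 and Zfp36 lay just past the limit at 1.56-fold (1.46 to 1.66), 1.56-fold (1.02 to 2.38) and 1.55-fold (1.35 to 1.77), and Jund and Junb just inside it at 1.30-fold (1.18 to 1.44) and 1.25-fold (1.15 to 1.35).

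The same comparison in the other classes of the day 13 libraries separated members that differed in every class from members that did not. Fos was 1.5-fold or more higher in KO in 7 of 7 classes, as 1 of 3912 genes measured in all 7 was (0.0256%), and that gene is Fos itself. Its KO and WT levels were 665 and 320 CPM in monocyte/macrophage-like cells, a ratio of 2.08 (1.93 to 2.24). They were 280 and 145 in conventional dendritic-like cells, 1.93-fold (1.47 to 2.56), and 217 and 91.6 in plasmacytoid dendritic-like cells, 2.37-fold (1.61 to 3.56). T-like cells gave 2.35-fold (1.77 to 3.13), B-like cells 1.82-fold (1.32 to 2.55) and neutrophil-like cells 1.51-fold (1.28 to 1.79), the smallest of the 7.

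Dusp1 was above the WT level in 7 of 7 classes and past 1.5-fold in 5. It had 59.3 CPM in KO and 17.2 in WT B-like cells, 3.45-fold (1.94 to 6.61), and 204 and 71.4 in monocyte/macrophage-like cells, 2.85-fold (2.46 to 3.30). Conventional dendritic-like cells gave 2.58-fold (1.88 to 3.58) and T-like cells 2.41-fold (1.67 to 3.52). Junb, Ier2 and Zfp36 were above WT in 7 of 7 classes too, but passed 1.5-fold in 2, 2 and 3 of them. Some classes showed almost no difference, since the lowest log2 ratios of these genes were 0.090, 0.006 and 0.14. Of the 3912 genes, members included, 1.23% were above WT in all 7 classes. Jund, which many resting cells express, was above WT in 4 of 7 classes and past the limit in 0.

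Jun and Egr1 depended on the class. Jun differed by 2.01-fold (1.59 to 2.55) in T-like cells, with 167 CPM in KO and 83.2 in WT, and by 1.56-fold in microglia-like cells, while its ratio was 0.988 (0.815 to 1.20) in plasmacytoid dendritic-like and 0.835 (0.668 to 1.05) in B-like cells. Egr1 was higher in KO microglia-like cells but lower in KO T-like cells, at 13.1 against 27.7 CPM, a ratio of 0.471 (0.237 to 0.882). Over the 7 classes, 26 of 61 gene-class pairs were higher (7.49% of all pairs) and 2 lower (10.5%), and the class medians ran from 0.19 in neutrophil-like to 0.84 in microglia-like cells, 7 of 7 above 0. The T-like median of 0.41 became -0.03 without the 10% of cells with most UMIs. It was 0.06 in classes from Leiden clusters, 0.13 with no filter on low values, and 0.34 to 0.56 in the other settings. A difference between classes in the size of these ratios was not tested.

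**Figure D3:**
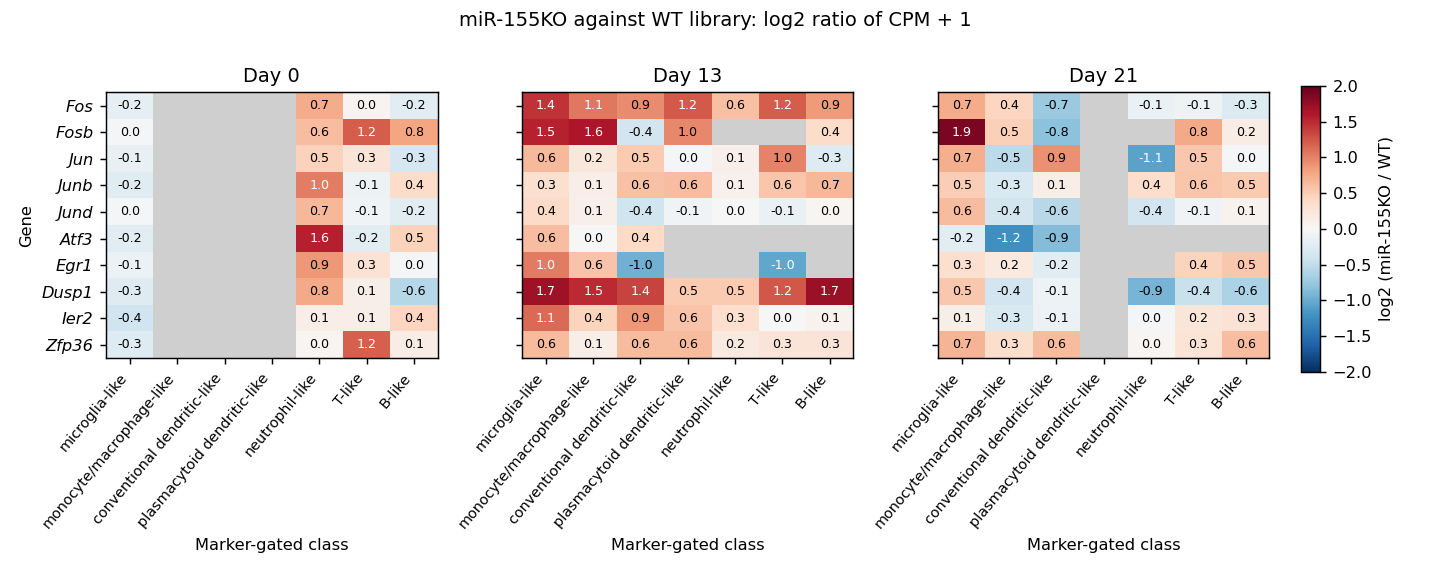
Log2 ratio of the miR-155KO to the WT library (colour and printed value) for each of the 10 genes (rows) in each marker-gated class (columns) on days 0, 13 and 21; grey cells had fewer than 50 cells of the class in a library or under 10 CPM in both. On day 13 the Fos row is above 0 in all 7 classes (0.60 to 1.45), and on day 21 it runs from -0.75 to 0.73.

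On day 21 Fos was above WT in 2 of 6 classes, against 7 of 7 on day 13, and the difference between the days was not tested. In microglia-like cells 5 of 10 members were 1.5-fold or more higher (10.1% of genes) and 0 lower (5.86%). Fosb differed by 3.82-fold (2.53 to 6.04), Fos by 1.67-fold (1.54 to 1.81), Jun by 1.65-fold (1.57 to 1.75), Zfp36 by 1.61-fold (1.44 to 1.80) and Jund by 1.56-fold (1.44 to 1.69). Dusp1 lay just inside the limit at 1.45-fold (1.23 to 1.72), and Junb at 1.40-fold (1.31 to 1.502). Ier2 and Atf3 had ratios of 1.09 (0.949 to 1.25) and 0.850 (0.623 to 1.18).

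Over 6 classes 9 of 55 gene-class pairs were higher in KO (13.3% of all pairs) and 7 lower (11.6%). Microglia-like cells held 5 of the 9 and 0 of the 7, so the other 5 classes had 4 higher and 7 lower. In those 5 classes the share of all genes ran from 3.76% to 22.3% higher and from 7.67% to 18.7% lower. For all 6 classes, with trimmed-mean (TMM) or median-of-ratios scaling turned the counts into 7 and 9. Class medians ran from -0.30 in monocyte/macrophage-like to 0.58 in microglia-like cells, 3 above and 3 below 0, and the neutrophil-like median of -0.14 became 0.05 with TMM scaling. In neutrophil-like cells 2 of 7 members were lower (18.2% of genes). These were Jun, at 64.3 CPM in KO and 137 in WT, a ratio of 0.471 (0.380 to 0.580), and Dusp1, at 86.2 and 164 CPM, a ratio of 0.524 (0.435 to 0.629).

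Fos itself had 265 CPM in KO and 446 in WT conventional dendritic-like cells on day 21, a ratio of 0.594 (0.463 to 0.758) from 50 and 104 cells. In T-like cells its levels were 166 and 179 CPM, a ratio of 0.929 (0.759 to 1.13), and in B-like cells 164 and 198, a ratio of 0.826 (0.613 to 1.12). Atf3 in monocyte/macrophage-like cells was at 40.9 CPM in KO and 97.0 in WT, a ratio of 0.422 (0.305 to 0.573). Zfp36 was the member above WT in 6 of 6 classes on day 21, past 1.5-fold in 3, and Dusp1 was above WT in 1 of 6. How many of all genes were above WT in all 6 classes was not counted for day 21.

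Markers of other cells differed between genotypes in microglia-like cells as well, and their part in the ratios was not tested. On day 13 the monocyte/macrophage markers summed to 531 CPM in WT and 784 in KO, and on day 21 to 742 and 204. Microglia markers summed to 16324 and 13242 CPM on day 13 and to 16555 and 24671 on day 21. Border-associated macrophage markers summed to 5.6 to 73.3 CPM over the 6 libraries, with Lyve1 and Cd163 at 0 in all 6. Neuron and oligodendrocyte genes summed to at most 1.9 and 16.4 CPM. Erythrocyte genes were all at 0 on day 13 and summed to 9.3 CPM in the KO library of day 21.

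RNA carried from microglia-like cells into other droplets was gauged from the C1q genes, a list picked after the data were seen. T-like cells held 1.73% to 4.23% of the C1q level of microglia-like cells of their library. At that share, carried Fos would be 83.9 of 351 CPM in WT T-like cells of day 0, and 5.20 of 54.8 (WT) and 25.8 of 129 (KO) on day 13. For Jun in neutrophil-like cells of day 0 the estimate was 78.7 of 90.4 CPM in WT, which is most of that level. On day 13 the neutrophil-like estimates for Fos were 2.28 of 174 and 2.41 of 264 CPM. The estimate on day 13 was a small part of the Fos level in WT T-like and in both neutrophil-like sets.

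Per cell, the day and genotype differences in microglia-like cells were seen across much of the class. Each cell was thinned to 1500 UMIs, which left out 1 microglia-like cell. The median microglia-like cell then held 32 and 29 UMIs of the 10 genes on day 0 (WT and KO), 3 and 5 on day 13, and 5 and 8 on day 21. At least 5 of the 10 genes were detected in 94.5% and 87.5% of cells on day 0, 8.96% and 24.9% on day 13, and 24.4% and 40.3% on day 21. At the same depth Fos was detected in 92.1% and 86.6% of cells on day 0, 21.6% and 40.5% on day 13, and 37.0% and 53.5% on day 21. Without thinning, Fos was found in 30.5% of WT cells (exact binomial interval 27.5% to 33.5%) and 51.3% of KO cells (46.6% to 55.9%) on day 13.

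Monocyte/macrophage-like cells of WT held the same median number of the genes as microglia-like cells of WT on day 13 (2 and 2) and day 21 (3 and 3), but 5 or more were found in 3.90% of them on day 13 and 15.8% on day 21. The KO shares of this class were 9.98% and 11.7%. In T-like cells 10.7% and 12.9% had 5 or more on day 0, 1.63% and 2.29% on day 13, and 4.06% and 4.95% on day 21. Neutrophil-like cells had 2.60% and 7.35%, 5.22% and 4.73%, and 3.98% and 4.13%. The shares in B-like cells were 18.0% and 14.6%, 0.641% and 1.77%, and 4.44% and 3.44%. Thinned Fos detection in T-like cells was 8.58% in WT and 15.5% in KO on day 13, and in B-like cells 8.98% and 14.0%. No class here is known to lack these genes, so free RNA could not be read from a negative class, and the C1q estimate stands in its place.

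**Figure D4:**
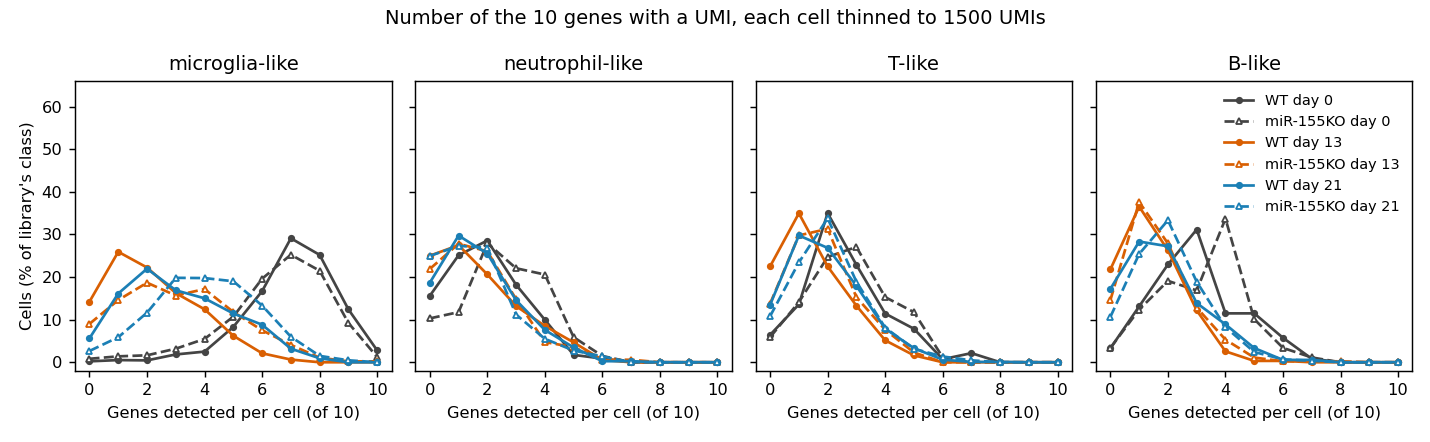
Share of cells (vertical axis, percent of a library's class) by how many of the 10 genes had a UMI after thinning each cell to 1500 UMIs (horizontal axis), for 4 classes; colours are days, solid lines with circles WT and dashed lines with triangles miR-155KO. Microglia-like cells of day 0 peak at 7 genes, whereas on day 13 the median is 2 in WT and 3 in miR-155KO.

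Other genes of the pathway were counted in microglia-like cells between KO and WT, where 4.27% of all genes were higher and 3.87% lower on day 13, and 10.1% and 5.86% on day 21. On day 13, 27 other immediate early genes were measured, with 7 above the fold limit in KO and 0 below it (median log2 ratio 0.30, all genes 0.01), and on day 21 it was 7 higher and 2 lower of 28 (median 0.26, all genes 0.08). Klf2, a factor of quiescent endothelial and immune cells that was picked after its values were seen, had 85.2 CPM in WT and 230 in KO on day 13. The other AP-1 and bZIP partners had 1 of 15 higher and 0 lower on day 13, and 1 higher and 2 lower of 13 on day 21. Kinases and regulators upstream had 1 higher and 1 lower of 22, then 1 higher and 0 lower of 22. Heat shock genes had 0 of 12 past the limit on day 13, and 2 of 14 higher on day 21.

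For mRNAs that Zfp36 binds, 4 of 9 measured were higher and 1 lower in KO on day 13 (median log2 ratio 0.58), and 1 higher and 4 lower of 9 on day 21 (median -0.27). Il1b, which encodes an inflammatory cytokine, was the gene of all these lists that lay past 2-fold in the same direction on both days. It had 61.1 CPM in WT and 28.9 in KO on day 13, and 81.3 and 18.7 on day 21. Its log2 ratios of -1.06 and -2.06 run against those of most members. Neutrophil marker sums in microglia-like cells were lower in KO on both days too. Monocyte/macrophage marker sums were higher in KO on day 13 and lower on day 21. The part of such markers in the Il1b ratios was not tested.

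The 17 comparisons of KO with WT (class and day) were also searched for genes whose ratios followed the members' median. Among 1954 genes with 20 CPM or more in every comparison, Srsf5, a splicing factor, had the highest Pearson r (0.74), followed by Wac (0.73), Clk1, a kinase of splicing factors (0.72), Jmjd1c (0.72), Pdcd6 (0.71), Klf6 (0.70), Sf3b1 (0.70), Pnrc1 (0.69), Pafah1b1 (0.69) and Picalm (0.67). Each point shares its library with other classes, so these values are descriptions. Members set against the median of the other 9 gave r from 0.21 (Zfp36) to 0.64 (Fos). These are not comparable with the values above, which are the highest of 1954 and use the median of all members.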

How the data were processed

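Each library was deposited as a matrix of UMI counts, whole numbers that the authors had not normalized. The submitters' processing notes name Cell Ranger 2.0.2 and mm10; how reads were assigned to genes was not given in those notes. Cells needed 200 genes or more and a mitochondrial share of 10% or less, and 23 failed. Per the files, library depth was 6321841 to 24243660 UMIs. The members, gene lists and gate minimums were chosen with earlier results of these data known.

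A cell joined a class when it had a UMI of at least a set number of the class's markers (4 of 10 for microglia-like, 4 of 11 for T-like, 4 of 10 for B-like, 8 of 12 for neutrophil-like, 5 of 9 for monocyte/macrophage-like, 3 of 11 for conventional dendritic-like and 4 of 7 for plasmacytoid dendritic-like cells) and met no other gate. No doublet caller was run, and cells past more than 1 gate were left out of every class. UMIs of a class were added up within each library and divided by their total. Classes with 50 or more cells in both libraries were compared as log2 of CPM plus a pseudocount of 1. Ratio intervals are exact conditional and level intervals exact Poisson, all at 95% and for counting error only, since UMI counts of 1 library say nothing of the spread between mice. The ratio step was tested on simulated data. All 10 members are described, those past 1.5-fold in microglia-like cells on day 13 or 21 in full. List genes are named where past 2-fold the same way on both days, at most 4 per list, and the 10 genes most like the members by correlation. Genes named outside these rules are marked as picked after their values were seen. Python 3.11.15, numpy 2.4.6, scipy 1.17.1, scanpy 1.11.5 (for the Leiden classes) and edgeR 4.0.16 (for TMM factors) were used. Alternatives were other scalings, filters, pseudocounts, gates, cell sets and fold limits.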

Additional observations from a re-analysis of the deposited data

Results flagged for a closer look

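Some genotype ratios passed 1.5-fold in opposite directions in 2 classes of a day, with intervals that exclude 1, and the difference between the classes was not tested. On day 21 Fos had a KO to WT log2 ratio of 0.73 in microglia-like and -0.75 in conventional dendritic-like cells. Jun had 0.73 in microglia-like, 0.91 in conventional dendritic-like and -1.08 in neutrophil-like cells on that day. On day 13 Egr1 had 1.04 in microglia-like and -1.03 in T-like cells.

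Others turned between days within a class, where the difference between days was not tested either. Fos in conventional dendritic-like cells went from 0.94 on day 13 to -0.75 on day 21. Dusp1 in neutrophil-like cells went from 0.75 on day 0 to -0.92 on day 21.

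Cells that met more than 1 gate were used in no comparison, and on day 13 several members were higher there in KO than in the WT control (766 and 734 cells). Fos was 2.30-fold higher there (2.14 to 2.48), Fosb 2.13-fold (1.60 to 2.87) and Dusp1 2.78-fold (2.48 to 3.13). The other 7 members had ratios from 1.01 (Jund, 0.955 to 1.06) to 1.66 (Atf3, 1.34 to 2.07). On day 0, from 76 and 128 such cells, 10 of 10 members were lower in KO, with ratios from 0.484 (Egr1, 0.381 to 0.610) to 0.797 (Fosb, 0.602 to 1.05) and Fos at 0.677 (0.625 to 0.733). Such barcodes can hold 2 cells or carried RNA, and their mix of classes was not compared.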

How the results depend on the processing

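No paired analysis was possible because every group held 1 library. In microglia-like cells 10 of 10 members were lower on day 13 than day 0 in both genotypes under each alternative run (chosen for the day counts after the data were seen). A fold limit of 2 lowered many counts, as a stricter limit can for any genes. The share of all genes past 2-fold was not counted, so the lower counts have no such share beside them. Members higher in KO went from 26 to 13 over classes and from 8 to 5 in microglia-like cells on day 13, from 9 to 1 and from 5 to 1 on day 21, and from 10 to 4 over classes on day 0. Members lower in KO went from 2 to 1 on day 13 and from 7 to 2 on day 21. The same limit took members lower on day 13 than day 0 in neutrophil-like cells from 4 to 1 in WT and from 7 to 4 in KO.

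Leiden classes built without the members gave 2 for that WT count, 3 lower members on day 21 and 1 on day 0. Without the 10% of cells with most UMIs there were 4 lower members on day 21, 1 on day 13 and 2 on day 0. Both day 21 counts lack the conventional dendritic-like pair, which held 3 of the 7 and fell under 50 cells there and with the stricter gate, so they come from fewer pairs: the other classes gave 4 before these changes too. The mean over cells gave 1 lower on day 13 and 1 on day 0, and TMM scaling and the stricter gate each gave 1 lower on day 0. Egr1 in conventional dendritic-like cells of day 13 turned from a log2 ratio of -0.97 to 0.83 in the Leiden classes, with 5 UMIs in KO and 9 in WT in the gated classes, and the cause was not tested. Of the other values per member, 1347 moved by no more than their counting error (1 arm of the 95% interval) and 23 by more. Some class medians changed sign: neutrophil-like cells of day 21 from -0.14 to 0.05 (TMM) and 0.04 (median of ratios), T-like cells of day 13 from 0.41 to -0.03 without the high-UMI cells, and B-like cells of day 0 from 0.06 to -0.12 (Leiden), -0.10 (mean over cells) and -0.16 (without the high-UMI cells). Fos was above WT in 7 of 7 classes on day 13 under each of the 10 settings without a change of fold limit, and past 1.5-fold in 6 or 7. The log2 ratio of the TMM factors is subtracted from every log2 ratio of a comparison, so a negative value raises them. It was more than 0.1 in size in neutrophil-like cells (-0.13 on day 13, -0.19 on day 21, KO to WT). For day 13 against day 0 it was so in microglia-like (-0.21 WT, -0.20 KO), neutrophil-like (0.15 WT), T-like (0.10 WT) and B-like cells (-0.42 WT, -0.49 KO). With 1 library per group, depth limits members under 10 CPM and no interval covers mice.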

Other observations

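Cells that met no gate gave a second set outside the classes. On day 13 these 156 KO and 105 WT cells had Fos at 442 and 189 CPM, 2.34-fold (1.87 to 2.95), and Dusp1 at 173 and 89.8 CPM, 1.92-fold (1.37 to 2.73). On day 21, from 229 and 400 cells, Fos stood at 393 and 305 CPM, 1.29-fold (1.12 to 1.48). Larger ratios were those of Egr1 at 2.91 (1.73 to 5.01), Fosb at 1.98 (1.22 to 3.22), Zfp36 at 1.89 (1.55 to 2.30), Jun at 1.34 and Dusp1 at 1.30. Atf3 was the single member below WT there, with 29.0 and 75.6 CPM, a ratio of 0.384 (0.244 to 0.584).

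NK-like cells, with 24 to 66 cells per library, were too few for a comparison of genotypes. Their Fos level was 424 and 317 CPM on day 0 (WT and KO), 22.6 and 61.0 on day 13, and 160 and 92.4 on day 21. The WT level of day 13 rested on fewer than 3 UMIs from 24 cells. Junb in the same cells had 1146 and 1310 CPM on day 0 and 396 to 486 later.

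Some chemokine mRNAs in microglia-like cells were picked after their values were seen. The day order of Ccl3 was that of Fos, and the day order of Cxcl10 was not. Ccl3 had 931 and 710 CPM on day 0 (WT and KO), 193 and 348 on day 13, and 280 and 507 on day 21, with the KO library higher on both later days. Cxcl10, an interferon-induced chemokine, had 12.9 and 5.70 CPM on day 0, 303 and 381 on day 13, and 231 and 47.5 on day 21.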
